A study of Mus musculus with 12 samples.

Results

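Interferon-stimulated genes are the genes that cells switch on when they sense interferon. The 45 of them described here were taken by gene symbol from the 54532 genes of a liver RNA sequencing table. By role they are 4 regulators, 3 genes of the ISG15 system, 3 of the IFIT, 5 of the OAS and 2 of the Mx family, 13 other antiviral effectors, 2 RNA sensors, 8 interferon-inducible GTPases, 3 genes of peptide supply to MHC class I and 2 chemokines. The mice had been injected with a gene delivery virus, adeno-associated virus (AAV). In 6 libraries the vector carried Rspo2 (Rspo2-AAV, numbers 1, 2, 4, 5, 6 and 7), and in 6 it carried Gfp, a fluorescent protein (Control, numbers 1 to 6). All 12 libraries, Control included, were from Apoe knockout mice, a strain used for its high blood cholesterol and atherosclerosis. Sex, age, diet, vector dose, promoter and time after injection are not given in the sources used here. The series title places the study in hepatic fat storage, and Rspo2 encodes R-spondin 2, a secreted enhancer of Wnt signalling.

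Type I interferons signal through the receptor Ifnar1/Ifnar2 and the kinases Jak1 and Tyk2 to a complex that holds Stat2 and Irf9. That complex binds a DNA element called the interferon-stimulated response element (ISRE). Interferon gamma signals through Ifngr1/Ifngr2 and acts at DNA elements called gamma-activated sites (GAS). In liver the response limits viral and bacterial growth, and hepatocytes and Kupffer cells, the resident macrophages, both run it.

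Values are FPKM, read fragments scaled to gene length and library size, over 14295644 to 22195576 recovered reads per library. Rspo2 ran from 49.9 to 573 FPKM in Rspo2-AAV livers and was listed at 0 in all 6 Control livers. Apoe ran from 43.1 to 101 FPKM in Rspo2-AAV livers and from 38.9 to 149 FPKM in Control livers; what the knockout allele removes is not given in the sources used here, so these levels do not check the genotype. The 6 hepatocyte markers summed to 24370 to 49310 FPKM in Rspo2-AAV livers and 25720 to 48500 FPKM in Control livers, with 1 called, Cyp2e1, which was higher (the call was lost in 10 of the 12 fits that left out a library, adjusted p up to 0.0919). Of the 6, 4 had negative log2 changes. At an unadjusted p under 0.05, 1 was higher and 2 lower, Alb (-0.62 ± 0.26) and Serpina1c (-0.65 ± 0.28). Some libraries stood apart. At 1 FPKM or more, Xist, the RNA that coats the inactive X chromosome, was found in Rspo2-AAV 1 and 2 and in Control 3. The 6 markers of pancreatic acinar cells summed to 29800, 2516, 290.9 and 29.1 FPKM in Rspo2-AAV 4, 5, 6 and 7 and to 3.23 and 7.37 FPKM in Rspo2-AAV 1 and 2, against 3.80 to 15.6 FPKM in Control, with 0 called and 5 at an unadjusted p under 0.05. Scd1, a gene of fat synthesis, was at 2457 to 3662 FPKM in the 7 libraries numbered 4 to 7 and at 330.9 to 541 FPKM in the 5 numbered 1 to 3, and the comparison is also given inside each of these number sets. Nothing in the labels ties each library to an animal of its own, and the p-values cover only the spread seen between libraries.

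Of the 45 interferon-stimulated genes, 6 fell in Rspo2-AAV livers and 0 rose. The 6 were Lgals3bp, Iigp1, Oas1a, Irgm1, Gbp6 and Cxcl9, at 36.5% to 69.0% of their Control means. The test was limma on log2(FPKM + 0.5), with Benjamini-Hochberg adjustment over all 13447 genes tested and genes with an adjusted p under 0.05 are named as called. The 6 members are 13.3% of the 45, while 2.65% of all tested genes were called lower. None of the 45 was higher, where 2.55% of all tested genes were called higher. At an unadjusted p under 0.05, 0 members were higher and 27 lower. Over all 13447 tested genes, 2891 had an unadjusted p under 0.05 in either direction, which is the background for each unadjusted count below. The limma-voom fit on recovered reads also called 0 higher (2.39% of all tested genes) and called these 6 and Oas3 lower (2.57%). The fitted log2 change was below 0 for 44 of the 45, against 49.6% of all tested genes. Its median over the 45 was -0.40, against 0.00 over all tested genes, and it ran from -1.03 for Oas1a to 0.04 for Stat2. For 3 members, Lgals3bp, Iigp1 and Gbp6, every Rspo2-AAV library lay below every Control library, as did 1.62% of all tested genes. In bulk tissue, fewer cells of a type and less RNA per cell cannot be told apart. Of the fits that left out a single library, those without Rspo2-AAV 5, 6 or 7 called 2 members lower (1.3%, 1.26% and 1.59% of all tested genes). Those without Control 2, 4 or 6 called 3 (1.34%, 1.48% and 1.33%), and that without Control 1 called 10 (3.1%). Rescaling to TPM left 2, Iigp1 and Oas1a (1.36% of all tested genes). Without the 3 libraries with Xist, 21 members were called lower (6.81% of all tested genes), and without Rspo2-AAV 4 and 5 only Lgals3bp and Iigp1 were (0.889%). The fit without the Xist libraries set Rspo2-AAV 4 to 7 alone, those with the highest acinar marker sums, against Control libraries of both number sets.

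**Figure D1:**
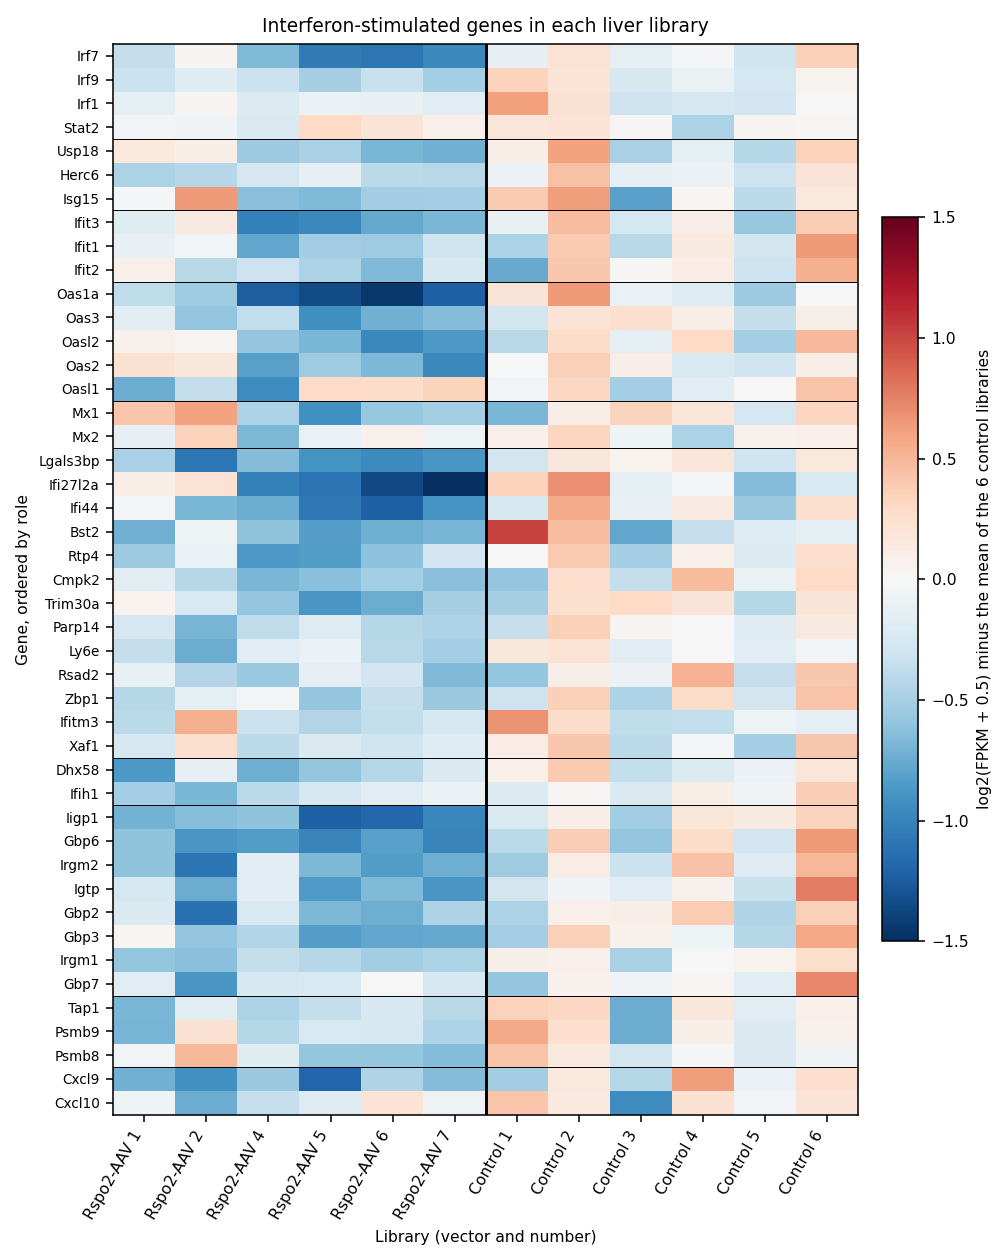
Level of each of the 45 genes in each library, as log2(FPKM + 0.5) minus the mean of the 6 Control libraries (blue lower, red higher), with Rspo2-AAV libraries left of the black line, Control right, and genes grouped by role. Blue fills most of the Rspo2-AAV side, deepest in numbers 5 to 7, and Control 2 and 6 are the reddest columns.

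**Figure D2:**
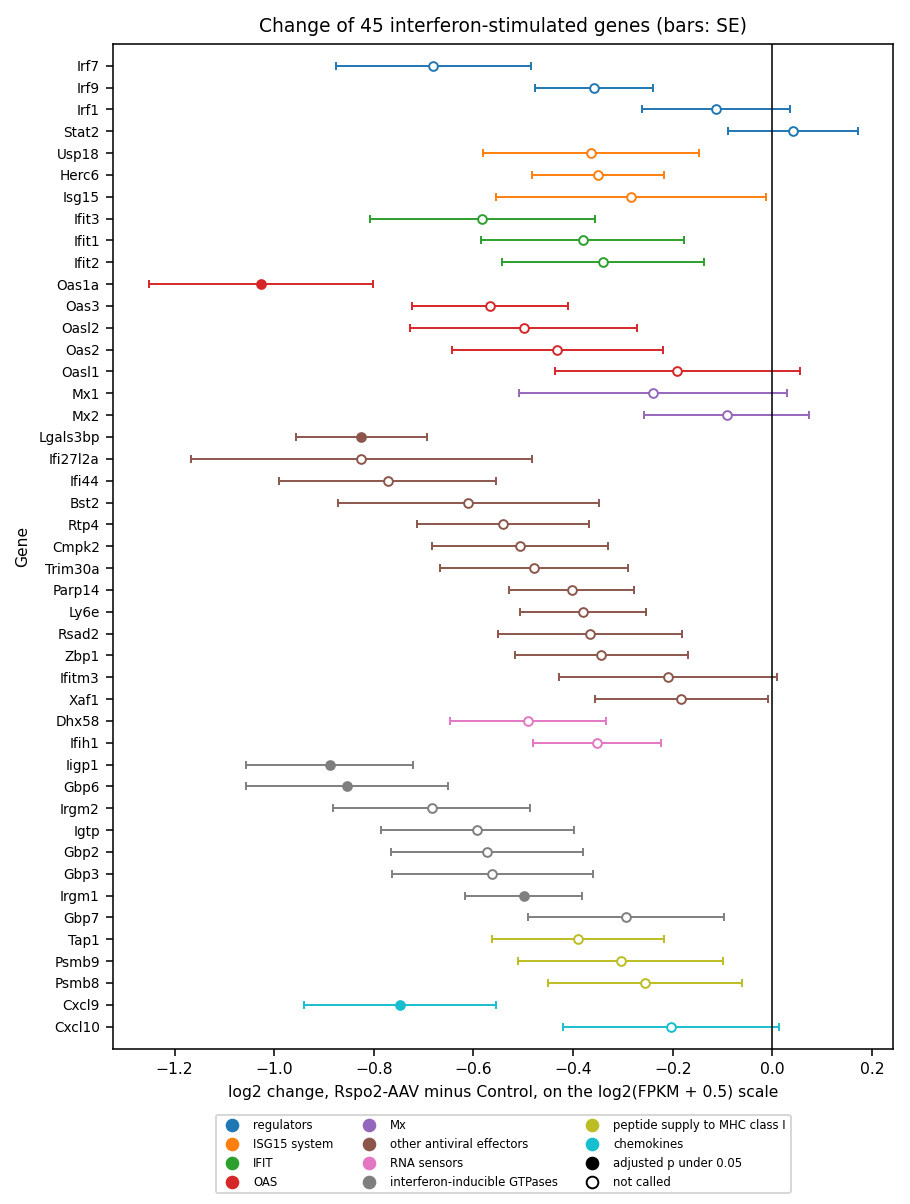
Fitted log2 change of each gene, Rspo2-AAV minus Control, on the log2(FPKM + 0.5) scale (6 libraries each), with bars for the standard error, colours for the role and filled points for an adjusted p under 0.05. All points lie left of 0 but that of Stat2, and 6 are filled.

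Levels of the 45 genes were uneven. Averaged over the 12 libraries, 44 were above 1 FPKM, 17 above 10 FPKM and 3 above 100 FPKM. Ifitm3, which blocks virus entry at membranes, averaged 583.6 FPKM and made up 42.2% of the summed FPKM of the 45. Bst2 (tetherin), which holds virus particles on the cell, averaged 246.8 FPKM and Ly6e, a membrane protein that limits coronavirus entry, 102.9 FPKM. None of these 3 was called, so the calls came from genes of lower level.

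Promoters of 5 members show the element through which the response is known to act. They were taken by smallest p from the members with an ISRE core whose values by library are given below, and Oas1a and Irgm1 of them were called. Each line is the 100 bases before the annotated start, 5′ to 3′ on the gene's strand, from RefSeq (GRCm38.p6), with the core in capitals: GAAA, any 2 bases, GAAA, or on the other strand TTTC, any 2 bases, TTTC.
Oas1a, chr5:120907526-120907625, minus strand: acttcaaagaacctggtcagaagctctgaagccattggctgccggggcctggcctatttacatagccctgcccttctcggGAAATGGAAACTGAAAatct
Irgm1, chr11:48871421-48871520, minus strand: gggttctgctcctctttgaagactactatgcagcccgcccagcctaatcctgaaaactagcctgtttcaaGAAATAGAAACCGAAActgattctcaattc
Oas3, chr5:120777660-120777759, minus strand: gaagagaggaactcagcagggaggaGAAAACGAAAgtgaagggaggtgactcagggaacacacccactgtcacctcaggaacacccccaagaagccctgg
Irgm2, chr11:58214877-58214976, plus strand: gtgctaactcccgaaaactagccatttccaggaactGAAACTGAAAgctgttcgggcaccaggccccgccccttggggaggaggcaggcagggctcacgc
Gbp2, chr3:142620563-142620662, plus strand: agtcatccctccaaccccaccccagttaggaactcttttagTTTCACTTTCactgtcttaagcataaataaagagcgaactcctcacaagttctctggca

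In Oas1a and Irgm1 a pair of cores overlap in a single run, from 20 to 5 bases before the start in Oas1a and from 30 to 15 in Irgm1. Of the 45 members, 33 had a listed promoter, and the core was found within 250 bases before the start in 16 of them (48.5%), on either strand, against 3.46% of the 27025 genes listed. The letters of a GAS (TTC, any 3 bases, GAA, the same on both strands) were found in 8 of the 33 (24.2%), against 8.13% of all genes; in the printed Oas1a and Irgm2 sequences they lie outside the capitals. The listed promoters of Lgals3bp and Cxcl9, both called, held no ISRE core in this window. Iigp1 and Gbp6, also called, had no listed promoter and were not searched. The RefSeq starts differ from those of the deposited gene positions. By the deposited positions, the printed windows of Irgm1 and Irgm2 lie inside the gene (chr11:48861968-48871683 and chr11:58199618-58222782). Those of Gbp2 and Oas3 reach into it. A match is only a description of the letters.

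Of the 4 regulators, 0 were called and 2, Irf7 and Irf9, had an unadjusted p under 0.05. Irf7, the transcription factor that amplifies type I interferon production, was at 13.4 to 29.9 FPKM in Rspo2-AAV livers (median 16.3) and at 23.4 to 37.0 FPKM in Control livers (median 27.6). Only Rspo2-AAV 2 reached into the Control range, and the other 5 lay below all Control libraries. Its log2 change was -0.68 ± 0.20 (SE; limma adjusted p = 0.0642), and without Rspo2-AAV 2 it passed the test (adjusted p = 0.0103) as 1 of 8 members then called lower (3.64% of all tested genes). Irf9, the DNA-binding part of the complex with Stat2, was at 8.37 to 10.6 FPKM in Rspo2-AAV livers (median 9.56) and 10.01 to 15.5 FPKM in Control livers (median 11.9). The groups met at Rspo2-AAV 2, which lay above Control 3 and 5 (log2 change -0.36 ± 0.12, adjusted p = 0.0986). Irf9 overlaps Rnf31 on the same strand, so reads may be shared between them.

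Stat2, the transducer of type I interferon, was the only member with a positive log2 change, and its groups overlapped throughout. It was at 15.3 to 22.1 FPKM in Rspo2-AAV livers (median 18.1) and 12.7 to 20.8 FPKM in Control livers (median 18.3), with Control 4 the lowest library (log2 change 0.04 ± 0.13, adjusted p = 0.894). The sign is not fixed: it was below 0 without Control 4 or without Rspo2-AAV 5. Irf1, a transcription factor induced by interferon gamma, had medians of 9.14 FPKM in Rspo2-AAV livers and 9.20 FPKM in Control livers (log2 change -0.11 ± 0.15, adjusted p = 0.714).

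The ISG15 system attaches the ubiquitin-like protein Isg15 to other proteins. Of its 3 members, 0 were called and 1, the ligase Herc6, had an unadjusted p under 0.05 (median log2 change -0.35). Isg15 itself was at 15.6 to 39.1 FPKM in Rspo2-AAV livers (median 17.3) and 13.9 to 38.7 FPKM in Control livers (median 26.6). Rspo2-AAV 2 was the highest of all 12 libraries and Control 3 the lowest (log2 change -0.28 ± 0.27, adjusted p = 0.595). Usp18, the protease that removes Isg15 and dampens the receptor, had a log2 change of -0.36 ± 0.22 (adjusted p = 0.365).

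The IFIT proteins bind viral RNA, and 0 of the 3 were called (1 at an unadjusted p under 0.05, Ifit3; median log2 change -0.38). Ifit1 was at 4.80 to 8.36 FPKM in Rspo2-AAV livers (median 6.40) and 6.05 to 13.7 FPKM in Control livers (median 8.29). The groups overlapped, with Control 2, 4 and 6 above all Rspo2-AAV libraries (log2 change -0.38 ± 0.20, adjusted p = 0.308). The Mx proteins, dynamin-like GTPases that trap viral particles, had 0 of 2 called and 0 at an unadjusted p under 0.05. Mx1 was at 2.23 and 2.61 FPKM in Rspo2-AAV 1 and 2 and at 0.591 to 0.995 FPKM in Rspo2-AAV 4 to 7, against 0.777 to 2.08 FPKM in Control livers. Rspo2-AAV 1 and 2 lay above all Control libraries, and Rspo2-AAV 4 to 7 below all of them but Control 1 (log2 change -0.24 ± 0.27, adjusted p = 0.659).

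The 2′-5′ oligoadenylate synthetases (OAS) make the second messenger that activates RNase L, which degrades RNA. Of the 5 genes of the family, which include the OAS-like genes Oasl1 and Oasl2, 1 fell and 3 had an unadjusted p under 0.05 (median log2 change -0.50). Oas1a (chr5:120896256-120907521 in GRCm38, the build of all gene positions here, minus strand) averaged 4.00 ± 1.504 FPKM in Rspo2-AAV livers and 8.58 ± 2.63 FPKM in Control livers (SD, n = 6 each), a fall to 46.6%. It was at 2.73 to 6.22 FPKM in Rspo2-AAV livers (median 3.24) and 5.53 to 13.2 FPKM in Control livers (median 8.00). Rspo2-AAV 4 to 7 lay below all Control libraries, and Rspo2-AAV 1 and 2 lay above Control 5 alone. The log2 change was -1.03 ± 0.22 (adjusted p = 0.0216), the most negative of the 45 on this scale. Gbp6 was more negative than Oas1a with a pseudocount of 0.1 (-1.20 for Gbp6, -1.10 for Oas1a) and by limma-voom (-1.34 for Gbp6, -1.09 for Oas1a). The call of Oas1a was lost without Rspo2-AAV 5, 6 or 7 (adjusted p up to 0.0571). Oas3 was at 0.446 to 1.10 FPKM in Rspo2-AAV livers (median 0.658) and 0.897 to 1.63 FPKM in Control livers (median 1.39). Only Rspo2-AAV 1 reached into the Control range (log2 change -0.57 ± 0.16, adjusted p = 0.0542), and limma-voom called Oas3 lower. Oasl1, which in mouse represses translation of Irf7, had medians of 11.8 FPKM in Rspo2-AAV livers and 11.7 FPKM in Control livers (log2 change -0.19 ± 0.25, adjusted p = 0.708).

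Of the 13 other antiviral effectors, 1 fell, 9 had an unadjusted p under 0.05 and all 13 had negative log2 changes (median -0.48). Lgals3bp, a secreted glycoprotein that binds galectins, averaged 33.1 ± 5.20 FPKM in Rspo2-AAV livers and 59.0 ± 8.79 FPKM in Control livers (SD, n = 6 each), a fall to 56.1%. It lies at chr11:118392751-118402092 on the minus strand. It was at 27.3 to 41.5 FPKM in Rspo2-AAV livers (median 31.3) and 47.6 to 66.3 FPKM in Control livers (median 63.0). The groups did not overlap. The log2 change was -0.82 ± 0.13 (adjusted p = 0.00478), the smallest p of the 45, and the call held without any single library (adjusted p 0.00333 to 0.0162); under TPM scaling the adjusted p was 0.0667.

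Ifi44, a GTP-binding protein of the antiviral response, was at 0.471 to 1.73 FPKM in Rspo2-AAV livers (median 0.792) and 1.05 to 2.83 FPKM in Control livers (median 1.77). Rspo2-AAV 1 stood above the other 5, which lay below all Control libraries (log2 change -0.77 ± 0.22, adjusted p = 0.0596). Ifi27l2a, a small interferon-induced membrane protein, had a log2 change as negative as that of Lgals3bp, -0.82 ± 0.34, with a wider spread (adjusted p = 0.185). The 3 most abundant members had log2 changes of -0.61 ± 0.26 for Bst2 (adjusted p = 0.200), -0.38 ± 0.13 for Ly6e (0.104) and -0.21 ± 0.22 for Ifitm3 (0.631). In Bst2 and Ifitm3, Control 1 was the highest Control library at 567 and 967 FPKM and Rspo2-AAV 2 the highest Rspo2-AAV library at 267 and 874 FPKM. The remaining 7 were Rtp4, Cmpk2, Trim30a, Parp14, Rsad2, Zbp1 and Xaf1, with log2 changes of -0.54 (Rtp4) to -0.18 (Xaf1). Rsad2 (viperin) makes a nucleotide that stops viral RNA synthesis, and Cmpk2 is its neighbouring nucleotide kinase. Their log2 changes were -0.37 ± 0.18 and -0.51 ± 0.18. Rtp4 overlaps Gm45338 on the same strand and Masp1 on the other.

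Both RNA sensors had an unadjusted p under 0.05 and 0 of 2 were called (median log2 change -0.42). Ifih1 (MDA5), which detects long double-stranded RNA, had medians of 4.47 FPKM in Rspo2-AAV livers and 5.64 FPKM in Control livers (log2 change -0.35 ± 0.13, adjusted p = 0.132). Dhx58 (LGP2), its cofactor, had medians of 5.07 FPKM in Rspo2-AAV livers and 7.39 FPKM in Control livers (log2 change -0.49 ± 0.16, adjusted p = 0.0900).

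The interferon-inducible GTPases attack the vacuoles in which intracellular microbes live. Of the 8, 3 fell, 7 had an unadjusted p under 0.05 and all 8 had negative log2 changes (median -0.58). Iigp1 (Irga6), which coats such vacuoles, averaged 60.8 ± 11.4 FPKM in Rspo2-AAV livers and 113 ± 22.8 FPKM in Control livers (SD, n = 6 each), a fall to 53.6%. It was at 47.3 to 73.2 FPKM in Rspo2-AAV livers (median 62.1) and 77.6 to 140.2 FPKM in Control livers (median 120.2). The groups did not overlap, and Control 3 was the lowest Control library. The log2 change was -0.89 ± 0.17 (adjusted p = 0.00967), and the call held without any single library (adjusted p 0.00344 to 0.0288).

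Irgm1, a regulator of the other GTPases and of autophagy (chr11:48861968-48871683, minus strand), averaged 10.3 ± 0.742 FPKM in Rspo2-AAV livers and 14.9 ± 2.45 FPKM in Control livers, a fall to 69.0%. It was at 9.36 to 11.3 FPKM in Rspo2-AAV livers (median 10.3) and 10.4 to 17.8 FPKM in Control livers (median 15.4). The groups overlapped through Control 3 alone, at 10.4 FPKM. Irgm1 had a log2 change of -0.50 ± 0.12 (adjusted p = 0.0302), and the call was lost without Control 2, 4, 5 or 6 or Rspo2-AAV 5, 6 or 7 (adjusted p up to 0.0762).

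Gbp6, a guanylate-binding protein (chr5:105270702-105293698, minus strand), averaged 0.521 ± 0.104 FPKM in Rspo2-AAV livers and 1.43 ± 0.655 FPKM in Control livers, a fall to 36.5%. It was at 0.420 to 0.705 FPKM in Rspo2-AAV livers (median 0.517) and 0.717 to 2.37 FPKM in Control livers (median 1.37). The groups did not overlap, but Rspo2-AAV 1 and Control 3 nearly met. The log2 change was -0.85 ± 0.20 (adjusted p = 0.0321), and the call was lost without Control 2, 4 or 6 or Rspo2-AAV 4, 5, 6 or 7 (adjusted p up to 0.0814). Guanylate-binding protein genes have closely similar neighbours, among them Gbp10, whose reads may be split between them, so their separate values are uncertain; the Oas1, Ifit3 and Ifi27l2 genes also have close copies.

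Gbp2, another guanylate-binding protein, was at 2.04 to 4.22 FPKM in Rspo2-AAV livers (median 3.22) and 3.48 to 6.68 FPKM in Control livers (median 5.36). Rspo2-AAV 1 and 4 lay above Control 1 and 5, and Rspo2-AAV 7 above Control 1 (log2 change -0.57 ± 0.19, adjusted p = 0.106). Irgm2 was at 8.94 to 17.6 FPKM in Rspo2-AAV livers (median 11.9) and 13.5 to 28.0 FPKM in Control livers (median 19.3). Only Rspo2-AAV 4 reached into the Control range (log2 change -0.68 ± 0.20, adjusted p = 0.0651). Irgm2 overlaps Igtp (Irgm3) on the same strand, so reads may be shared, and Igtp had a log2 change of -0.59 ± 0.19 (adjusted p = 0.0973). Gbp3 and Gbp7 had log2 changes of -0.56 ± 0.20 and -0.29 ± 0.20.

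Psmb8 and Psmb9 are subunits of the immunoproteasome and Tap1 is a chain of the transporter that feeds its peptides to MHC class I. Of the 3, 0 were called and 1, Tap1, had an unadjusted p under 0.05 (median log2 change -0.30). Tap1 had medians of 7.64 FPKM in Rspo2-AAV livers and 11.1 FPKM in Control livers (log2 change -0.39 ± 0.17, adjusted p = 0.215). Tap1 and Psmb9 overlap on opposite strands, and strand use in counting is not given in the sources used here.

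Cxcl9 and Cxcl10 draw Cxcr3-bearing T cells, and 1 of the 2 fell. Cxcl9, known for its dependence on interferon gamma (chr5:92321347-92328079, minus strand), averaged 3.06 ± 0.618 FPKM in Rspo2-AAV livers and 5.63 ± 1.87 FPKM in Control livers (SD, n = 6 each), a fall to 54.4%. It was at 2.09 to 3.80 FPKM in Rspo2-AAV livers (median 3.17) and 3.63 to 8.63 FPKM in Control livers (median 5.53). The groups overlapped only between Rspo2-AAV 6 and Control 1. Cxcl9 had a log2 change of -0.75 ± 0.19 (adjusted p = 0.0438), and the call was kept only without Control 1 or Control 3 and lost without any of the other 10 libraries. Cxcl10 was at 2.02 to 4.36 FPKM in Rspo2-AAV livers (median 3.34) and 1.70 to 5.13 FPKM in Control livers (median 4.26). Control 3 was the lowest of all 12 libraries and Control 1 the highest (log2 change -0.20 ± 0.22, adjusted p = 0.643).

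**Figure D3:**
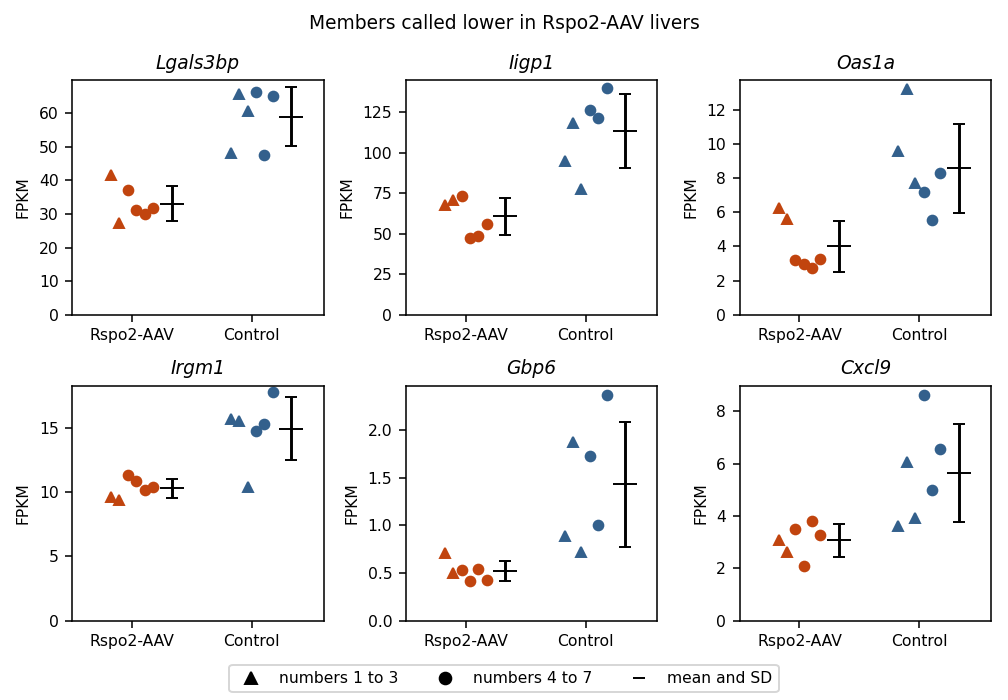
FPKM of the 6 genes called lower, by library, with Rspo2-AAV left and Control right, triangles for numbers 1 to 3, circles for numbers 4 to 7 and a bar for the mean and SD (n = 6 each). The groups do not overlap for Lgals3bp, Iigp1 and Gbp6, and overlap for Oas1a, Irgm1 and Cxcl9.

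Among genes of the pathway outside the 45, 1 receptor gene fell and the interferons themselves were barely read. The 21 interferon genes listed could not be tested: 16 had 0 reads in all 12 libraries, and the 21 together had 14 reads in the 6 Rspo2-AAV libraries and 12 reads in the 6 Control libraries. Ifnb1 had 0 reads in both groups, and Ifng had 2 reads in Rspo2-AAV livers and 3 in Control livers, so no difference was detectable at this depth. Of 5 tested receptor genes, 1 fell and 3 had an unadjusted p under 0.05. This was Ifngr2, the signalling chain of the interferon gamma receptor, at 4.19 to 5.32 FPKM in Rspo2-AAV livers (median 4.64) and 6.21 to 10.01 FPKM in Control livers (median 7.47). The groups did not overlap (log2 change -0.65 ± 0.11, adjusted p = 0.00720), and the call held without any single library. Ifnar1, a chain of the type I receptor, had a log2 change of -0.19 ± 0.09 (adjusted p = 0.228).

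Of 9 kinases and signal transducers, 0 were called higher or lower by limma, with 1 at an unadjusted p under 0.05. Stat3 and Jak1, the most abundant of the 9, had values of 0.02 ± 0.16 and -0.17 ± 0.11 on the log2 scale (adjusted p = 0.959 and 0.426). Of 15 tested genes of a list for sensing upstream of interferon, which also holds adaptors and transcription factors, 2 fell and 0 rose. Both that fell are transcription factors, and the sensors Ddx58, Tlr3, Tlr7 and Tlr9 were tested and not called. Irf2, a transcription factor that binds the same element and can repress it, averaged 4.21 ± 0.615 FPKM in Rspo2-AAV livers and 6.86 ± 0.878 FPKM in Control livers (log2 change -0.65 ± 0.11, adjusted p = 0.00749). Irf5, a factor of macrophages downstream of Toll-like receptors, averaged 5.25 ± 0.878 FPKM in Rspo2-AAV livers and 7.87 ± 0.981 FPKM in Control livers (log2 change -0.55 ± 0.11, adjusted p = 0.0170).

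Of 43 further interferon-stimulated genes outside the 45, 2 fell and 0 rose, and 39 had negative log2 changes (median -0.26). At an unadjusted p under 0.05, 16 were lower and 1 higher, Cxcl11 (log2 change 0.42 ± 0.16, limma adjusted p = 0.150). Parp9, which acts with the ligase Dtx3l in antiviral defence, averaged 10.7 ± 0.963 FPKM in Rspo2-AAV livers and 14.7 ± 1.25 FPKM in Control livers (log2 change -0.44 ± 0.09, adjusted p = 0.0159). Gbp10 was at 0.441 to 1.62 FPKM in Rspo2-AAV livers (median 0.662) and 1.06 to 10.9 FPKM in Control livers (median 4.24). Its log2 change was -1.85 ± 0.39 (adjusted p = 0.0181), more negative than that of any of the 45, and the call was lost without Control 2 (adjusted p = 0.0506). The 2 called are 4.65% of the 43, against 2.65% of all tested genes called lower.

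The difference between the vectors was described again within each number set, which share no libraries. Within numbers 4 to 7 (4 Rspo2-AAV and 3 Control libraries), 19 of the 45 fell and 0 rose, where 7.0% of all 13365 genes tested were called lower and 6.52% higher; 43 log2 changes were negative (median -0.55). Each of these 4 Rspo2-AAV libraries had an acinar marker sum (29.1 to 29800 FPKM) above those of the 3 Control libraries (5.33 to 10.7 FPKM), and its part in the result was not tested. The 19 included Irf7, Isg15, Ifit3, Mx1, Oas2, Bst2, Tap1 and all 6 genes called over the 12 libraries. Within numbers 1 to 3 (2 Rspo2-AAV and 3 Control libraries), limma called 0 of the 45 either way. Of 13394 genes tested, 0.0% were called lower and 0.105% higher. At an unadjusted p under 0.05 there were 2 of the 45, against 972 of the 13394. In this set Xist was found in both Rspo2-AAV libraries and in 1 of the 3 Control libraries, and its part was not tested either. There, 37 log2 changes were negative (median -0.28). Mx1 had the widest gap of the 45 between the sets, with a log2 change of -0.70 within numbers 4 to 7 and 0.59 within numbers 1 to 3. Isg15 had -0.51 within numbers 4 to 7 and 0.24 within numbers 1 to 3. Lgals3bp had -0.86 within numbers 4 to 7, against -0.77 within numbers 1 to 3. With a term for the number set over all 12 libraries, 8 of the 45 were called lower (3.38% of all tested genes).

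The difference between the sets was itself tested as the interaction of vector and number set. By limma 0 of the 45 were called, where 0.245% of all tested genes were. By limma-voom 0 were called too, with 7 at an unadjusted p under 0.05, against 1462 of all 13447 tested genes. By limma 7 of the 45 had an unadjusted p under 0.05, against 1546 of all 13447 tested genes. The 7 were Mx1, Oas2, Irf7, Oasl2, Iigp1, Cmpk2 and Ifi27l2a, with interaction terms of -1.29 ± 0.37 for Mx1 (adjusted p = 0.254) to -0.65 ± 0.23 for Oas2 (adjusted p = 0.327). So the number sets are not shown to differ for any member.

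**Figure D4:**
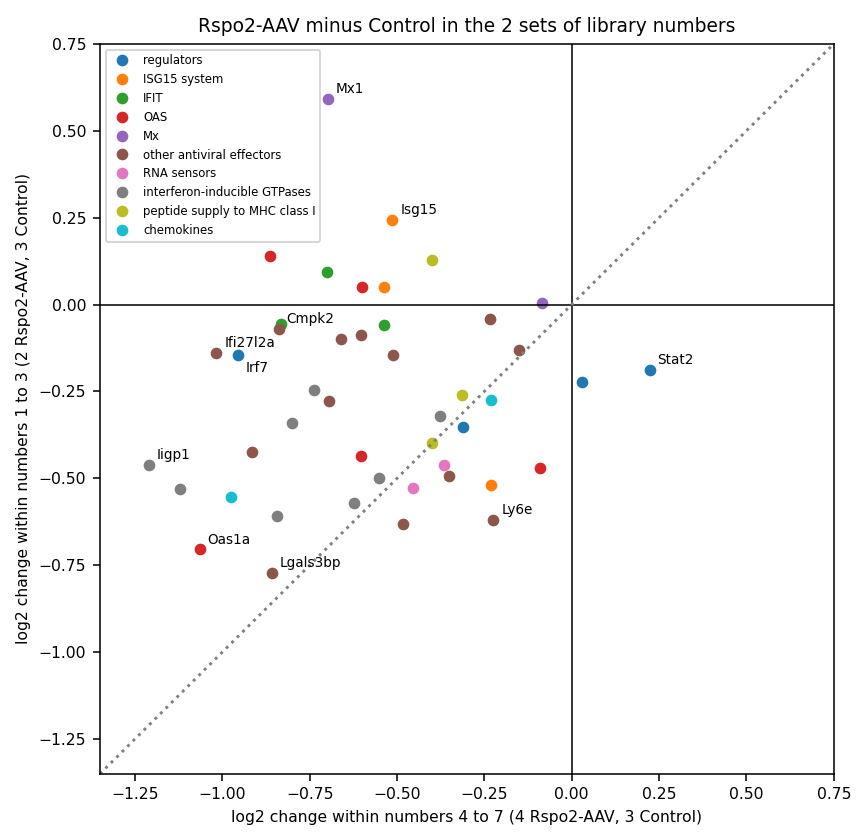
Log2 change of each of the 45 genes, Rspo2-AAV minus Control on the log2(FPKM + 0.5) scale, in the numbers 4 to 7 (x axis) and in the numbers 1 to 3 (y axis), coloured by role, with a dotted line of equal change. Most points lie in the lower left area and above the dotted line, with Mx1 highest at 0.59 on the y axis.

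By library, the mean log2(FPKM + 0.5) of the 45 genes was 2.87 ± 0.14 in Rspo2-AAV livers and 3.33 ± 0.24 in Control livers (SD, n = 6 each). It was 3.05 in both Rspo2-AAV 1 and 2 and 2.75 to 2.81 in Rspo2-AAV 4 to 7. In Control it was lowest in libraries 3 and 5, both 3.07, and highest in libraries 2 and 6, at 3.62 and 3.58. The groups did not overlap on this scale, but they did when libraries were rescaled to TPM, where Rspo2-AAV 1 was at 4.45 and Control 1 at 4.02. In Rspo2-AAV 4 all 45 genes were below the Control median, and in Rspo2-AAV 2 30 were.

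Markers of some other liver cells were also lower in Rspo2-AAV livers. The 6 Kupffer cell markers summed to 221.7 to 428.8 FPKM in Rspo2-AAV livers and 355.0 to 748.5 FPKM in Control livers, with all 6 log2 changes negative and 3 called lower: Marco (-2.28 ± 0.42), Clec4f (-1.40 ± 0.30) and Vsig4 (-0.996 ± 0.223). Within Control this sum did not follow the 45 genes. Control 3 had the highest sum, 748.5 FPKM, and a mean over the 45 of 3.07, while Control 6 had 391.9 FPKM and 3.58. The 6 markers of monocytes and recruited macrophages summed to 151.5 to 285.0 FPKM in Rspo2-AAV livers and 185.8 to 440.6 FPKM in Control livers, with 1 of 5 tested called lower, Trem2 (-0.67 ± 0.18). Nearly all of this sum was Lyz2, which was not called, at 148.4 to 279.6 FPKM in Rspo2-AAV livers and 180.4 to 434.6 FPKM in Control livers. The 9 markers of T and NK cells summed to 2.37 to 5.98 FPKM in Rspo2-AAV livers and 4.39 to 8.10 FPKM in Control livers, with 1 of 4 tested called lower, Gzma (-0.68 ± 0.17). Sums of the 5 stellate cell markers did not overlap, at 28.3 to 44.8 FPKM in Rspo2-AAV livers and 60.3 to 81.3 FPKM in Control livers, with 3 called lower: Dcn (-1.003 ± 0.147), Colec11 (-1.04 ± 0.15) and Lrat (-1.11 ± 0.23). The calls of Marco and the 3 stellate cell genes held without any single library, while Clec4f, Vsig4, Gzma and Trem2 lost theirs in 1, 6, 8 and 10 of the 12 fits that left out a library. None of these markers was at 0 in all libraries. The 4 B cell markers went the other way, at 1.43 to 9.21 FPKM in Rspo2-AAV livers and 0.823 to 2.75 FPKM in Control livers, with 0 of 3 tested called and 3 at an unadjusted p under 0.05. Their sums were 9.21, 7.85 and 7.52 FPKM in Rspo2-AAV 1, 2 and 4, but 2.96, 2.56 and 1.43 FPKM in Rspo2-AAV 5, 6 and 7. The 5 plasmacytoid dendritic cell markers summed to 201.9 to 308.2 FPKM in Rspo2-AAV livers and 169.0 to 591.0 FPKM in Control livers. Most of each sum came from Bst2, which is also 1 of the 45. Of the 5 markers, 2 were tested and Ly6d was called higher (2.35 ± 0.44). Ly6d was alone in this: Siglech, Ccr9, Cox6a2 and Bst2 had lower means, at 61.4%, 71.3%, 89.5% and 61.0% of Control. Bst2 was not called, and the levels of Siglech, Ccr9 and Cox6a2 were too low to be tested. Sums of neutrophil, sinusoidal endothelium and cholangiocyte markers overlapped between the groups, with 0 genes called (0, 1 and 1 at an unadjusted p under 0.05). The neutrophil sums were 49.2, 53.0 and 54.3 FPKM in Rspo2-AAV 1, Rspo2-AAV 2 and Control 3, the libraries with Xist. They were at most 18.2 FPKM in the other libraries. The part of these cells in the lower interferon-stimulated genes was not tested.

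**Figure D5:**
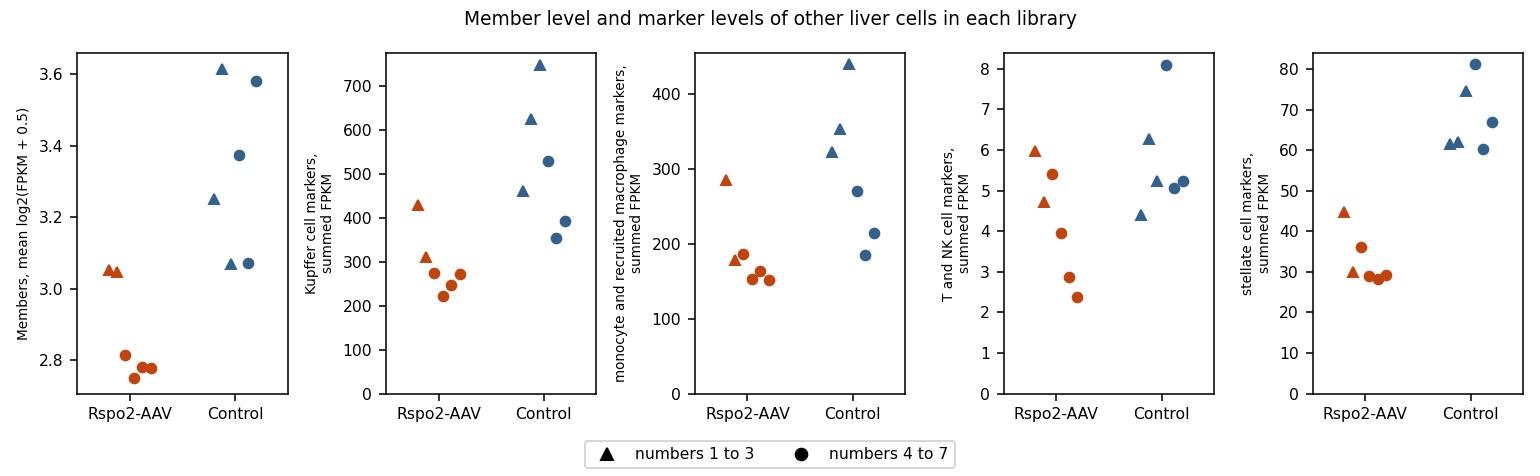
Left panel, mean log2(FPKM + 0.5) of the 45 genes in each library; other panels, summed FPKM of Kupffer cell, monocyte and macrophage, T and NK cell and stellate cell markers, with Rspo2-AAV left and Control right, triangles for numbers 1 to 3 and circles for numbers 4 to 7. Stellate cell sums separate the groups, as the 45 genes do, and the other 3 marker sums overlap. The monocyte and macrophage sum is nearly all Lyz2.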

How the data were processed

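RNA was sequenced from 12 liver samples, 6 Rspo2-AAV and 6 Control. Per the labels' protocols, poly-A RNA was made into cDNA with random primers, and library types with and without strand marking are both named, so strand use in counting is not given in the sources used here. The authors deposited FPKM per gene with gene length and position. HISAT2 2.0.5, featureCounts 1.5.0-p3, DESeq2 1.20.0 and GRCm38 (mm10) are named, with no role or order, per the submitters' processing notes. The gene length column, deposited by the authors, served only to recover reads: 100.0% of values above 0 gave a whole number of reads within 0.01, at 14295644 to 22195576 reads per library. The deposited FPKM already hold a median-of-ratios scaling between libraries.

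Values were tested with limma 3.58.1 in R 4.3.3 (lmFit, eBayes with trend) after taking log2(FPKM + 0.5). Genes averaging 0.5 FPKM or more were kept, with Benjamini-Hochberg adjustment over all of them; every adjusted p comes from limma. Changes on this scale understate those of low genes. The scripts were tested on simulated data. Count models were not run because the deposited unit is FPKM; limma-voom on recovered reads was. The other alternatives were pseudocounts of 0.1 and 1, other filters on low values, TPM, a number-set term, a block on the replicate number, and subsets of libraries. Members, lists, number sets and the libraries left out were chosen with earlier results of these data known. Full values were given for called members, filled to 10 members by smallest p, and for Irf7, Irf9, Stat2, Isg15, Ifit1, Gbp2 and Cxcl10, and of the pathway lists (not the cell type markers) for up to 4 called genes each, or with none called the 2 most abundant; other genes were named after their values were seen. One gene that the rule names is not reported here. Plots used Python 3.11.15 and matplotlib 3.10.9.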

Additional observations from a re-analysis of the deposited data

Results flagged for a closer look

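Among the 45 genes and the mean over them, a library's distance from its own group was checked in 92 groups of 6 libraries, and in 7 a single library lay far from the others, where about 4.6 would by chance (1 in 20). Rspo2-AAV 2 was involved 4 times: it was highest for Bst2 at 267 FPKM (158 to 186 FPKM in the other 5 Rspo2-AAV libraries), for Ifitm3 at 874 FPKM (448 to 508 FPKM) and for Xaf1 at 3.48 FPKM (2.06 to 2.47 FPKM), and lowest for Gbp7 at 1.75 FPKM (2.92 to 3.61 FPKM). Ifi44 was highest in Rspo2-AAV 1 at 1.73 FPKM, against 0.471 to 0.903 FPKM in the other 5. In Control, Stat2 was lowest in library 4 at 12.7 FPKM, with 18.1 to 20.8 FPKM in the other 5, and Igtp was highest in library 6 at 41.7 FPKM, with 19.1 to 25.2 FPKM in the other 5.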

How the results depend on the processing

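The count of members called lower was 6 with pseudocounts of 0.1 and 1 (2.64% and 2.58% of all tested genes), 5 where the mean had to reach 1 FPKM (2.84%), 7 by limma-voom, 8 with a number-set term and 8 without Rspo2-AAV 2. It was 3 with no filter on low values (0.736%), where 29332 genes are tested, and 2 with TPM. It was 19 within numbers 4 to 7, 0 within numbers 1 to 3, 21 without the libraries with Xist and 2 without Rspo2-AAV 4 and 5. Leaving out a single library gave 2 to 10. The cause of these shifts was not tested. The count called higher was 0 in each of these fits.

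Samples of the same number did not deviate together (r = -0.249, 0.053, 0.082, 0.088 and 0.156 for numbers 1, 2, 4, 5 and 6), and only number 4 correlated best with its own number, so the numbers were not taken as pairs, although Scd1 separates numbers 4 to 7 from 1 to 3 in both groups. With the replicate number as a block, over the 10 libraries of shared numbers, 3 members were lower (1.18% of all tested genes): Oas1a, Rtp4 and Dhx58.

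The sign of the log2 change turned for Irf1 (0.03 within numbers 4 to 7, 0.01 without Control 1, and -0.18 to 0.01 over all single libraries left out), Stat2 (-0.19 within numbers 1 to 3, -0.05 without Control 4, -0.01 without Rspo2-AAV 5, range -0.05 to 0.09) and Mx2 (0.06 without Rspo2-AAV 4 and 5, 0.02 without Rspo2-AAV 4). Within numbers 1 to 3 it also turned for Isg15 (0.24), Usp18 (0.05), Ifit1 (0.09), Oas2 (0.05), Oasl2 (0.14), Mx1 (0.59), Mx2 (0.01) and Psmb8 (0.13); the cause was not tested. Of the other values of single genes, 1141 kept direction and side of the threshold, 54 passed it and 64 lost it. With 2 and 3 libraries, numbers 1 to 3 alone show little, and genes near 1 FPKM rest on few reads (38 to 270 for Gbp6).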
